A study of Bos taurus with 6 samples.

Results

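Apolipoproteins are the protein shells of lipoprotein particles, which carry cholesterol and triglyceride between tissues. Lipoprotein lipase (LPL) releases fatty acids from these particles at the capillary wall of fat and muscle, PLTP moves phospholipid between particles, and receptors such as VLDLR and LRP1 bind the particles and take them up. In fat, LPL is a classical marker of differentiating adipocytes, and APOE is made by adipocytes as well as by macrophages and liver. This report covers 9 genes of this system, APOA1, APOD, APOE, APOM, LPL, LIPA, PLTP, VLDLR and LRP1. They were chosen by name for their roles, with earlier results of these data known, out of 23475 genes in the expression table. All 9 have a row.

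RNA was sequenced from bovine cells of subcutaneous fat of calves, cultured in medium with fetal bovine serum. One group of 3 libraries was transfected with the bta-miR-484 agomir, a modified RNA duplex that raises the level of this miRNA, and the other 3 with the agomir NC, a duplex without its sequence. Both groups were collected after 48 h. Neither the labels nor the study's methods say whether a group's 3 samples are from separate calves, so p-values measure the spread between these samples, which may be technical. The authors deposited values in FPKM, fragments scaled by the length of each transcript and by all mapped fragments, so levels can be compared between genes of different length. Summed over genes, a library held between 365977 and 379361 FPKM. The number of reads in each library is unknown, and no counting error can be given. The groups were compared with limma on log2(FPKM + 0.5), over the 12422 genes whose mean reached 0.5 FPKM. Log2 fold changes are on this scale, which understates the change of low genes, and are agomir minus agomir NC throughout. Adjusted p-values are Benjamini-Hochberg values over these 12422 genes.

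The labels call the cells adipocytes, and the study's methods describe isolated preadipocytes. Collagen genes of mesenchymal cells were among the highest in the libraries. COL3A1, the highest gene of every library, lay between 7428 and 7916 FPKM, and the preadipocyte receptor PDGFRA between 162 and 172 FPKM. The 12 mesenchymal and preadipocyte markers summed to between 23360 and 24540 FPKM, although DLK1, a preadipocyte marker, was listed at 0 in all 6 libraries and ZNF423, a preadipocyte transcription factor gene, was between 5.12 and 6.29 FPKM. Of 10 markers of fat-storing adipocytes, 5 were below the level tested, and the other 5 were low, GPD1 between 2.61 and 3.46 FPKM, FABP4 between 1.54 and 3.57, PLIN1 between 0.974 and 1.56, CIDEA between 1.14 and 1.50 and LIPE between 0.326 and 0.836 FPKM. ADIPOQ, the gene of adiponectin, lay between 0.0763 and 0.197 FPKM, PCK1 was listed at 0 in every library, and the 10 markers together summed to between 7.94 and 9.71 FPKM, with GPD1 the most abundant.

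APOE, LPL and LIPA are also macrophage genes, and APOA1 is made by liver and intestine, so markers of those cells were read in the same libraries. Of 8 macrophage markers, C1QA, C1QB and MSR1 were listed at 0 in all 6 libraries. PTPRC, which encodes the pan-leukocyte antigen CD45, was at most 0.119 FPKM. The macrophage list summed to between 6.44 and 7.32 FPKM, nearly all of it CD14, which lay between 5.85 and 6.45 FPKM. Of 6 liver and intestine markers, APOB was listed at 0 in every library, ALB was at 0.0742, 0.0263 and 0 FPKM after the agomir, against 0.229, 0.123 and 0.119 FPKM after the agomir NC, all lower with the agomir, and the most abundant was APOA4, at most 0.518 FPKM. Their sum was 0.610, 0.568 and 0.591 FPKM with the agomir and 0.437, 0.461 and 0.878 FPKM after the agomir NC, so the groups overlapped in the sum. The 6 endothelial markers summed to between 3.77 and 4.54 FPKM, with VWF the most abundant, and PECAM1, a defining endothelial marker, was at most 0.147 FPKM. Of the Schwann cell markers SOX10 was listed at 0 and S100B was the most abundant, the 4 summing to between 3.10 and 4.94 FPKM. The 6 smooth muscle and pericyte markers on the list summed to between 45.8 and 51.7 FPKM, most of it ACTG2, while RGS5 was listed at 0 in 5 libraries. ACTA2, the gene of smooth muscle alpha-actin, was not on that list and lay between 196 and 220 FPKM. The 3 skeletal muscle markers with a row summed to at most 0.0191 FPKM, from MYF5, and MYOD1 and MYOG were listed at 0. The 4 epithelial markers summed to between 0.145 and 0.379 FPKM, with EPCAM the most abundant and KRT18 listed at 0.

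The 9 genes differed widely in level. LRP1 stood at a mean of 376.4 FPKM over the 6 libraries, VLDLR at 81.1, LIPA at 20.6, PLTP at 9.44, APOE at 7.05, LPL at 3.73, APOM at 2.79, APOA1 at 1.36 and APOD at 0.168 FPKM. Both receptors thus lay above every ligand, enzyme and transfer protein among the 9. This order was the same in all 6 libraries, and no gene overlapped its neighbour in the order in the range of its values. The smallest gap within a library was that between LPL and APOM, a ratio of 1.18. LRP1 was higher than 98.8% of the genes tested, VLDLR than 94.5% and LIPA than 76.2%, whereas PLTP and APOE lay near the middle, above 53.9% and 44.7%. LPL was above 28.9%, APOM above 22.9% and APOA1 above 12.2% of the genes tested. Over the 6 libraries the coefficient of variation was 4.17% for VLDLR, 5.96% for LIPA, 7.73% for APOE, 8.44% for LPL, 9.08% for LRP1, 9.17% for PLTP and 10.6% for APOM, and it was 30.3% for APOD and 43.3% for APOA1, the 2 lowest genes.

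**Figure D1:**
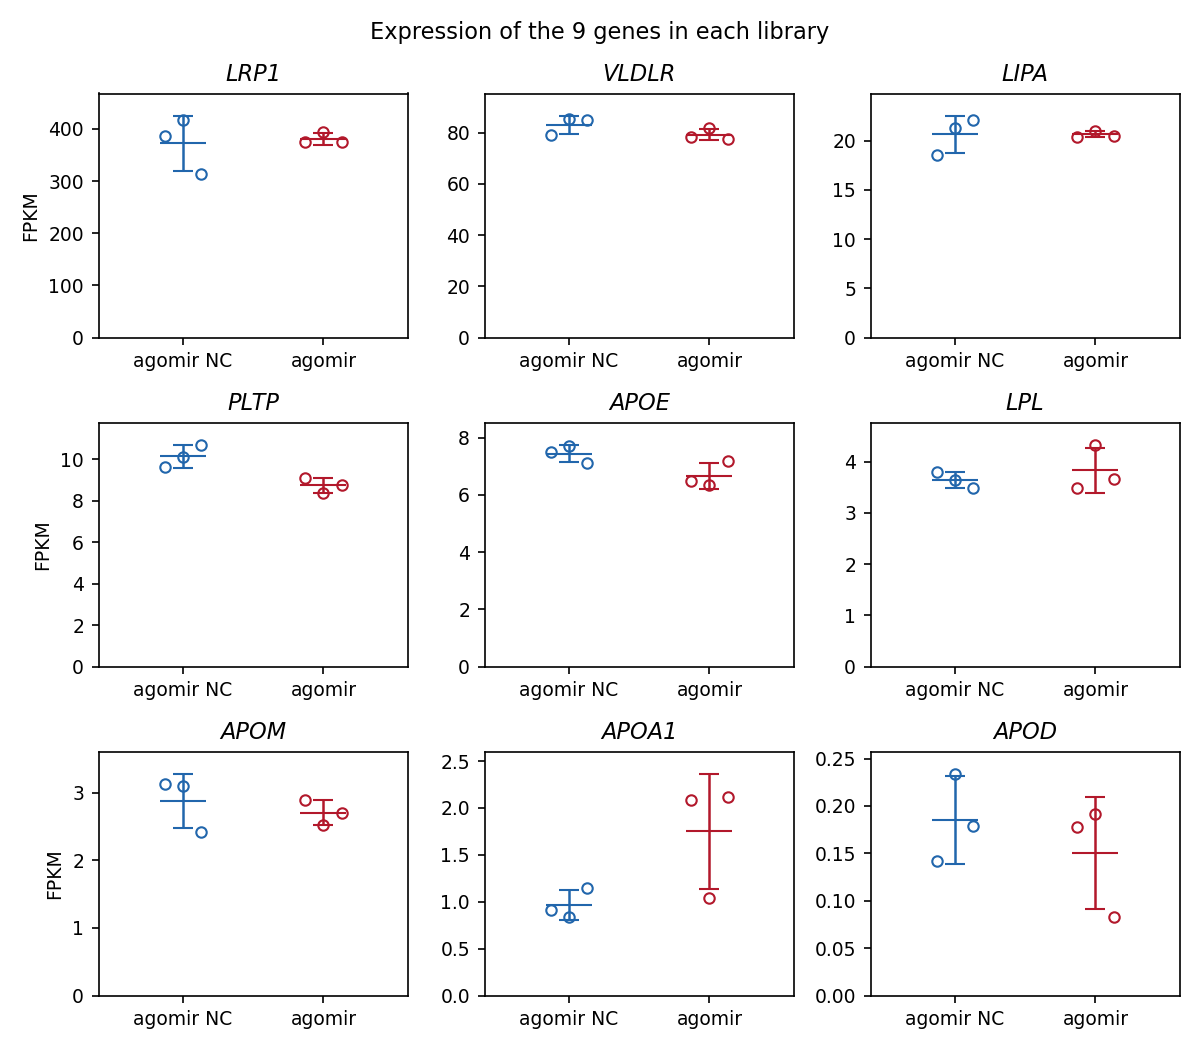
FPKM of the 9 genes in the 3 agomir NC (blue) and 3 agomir (red) libraries, with 1 panel per gene, a linear axis from 0, and the mean and SD of each group as a line with bars. The groups are apart in PLTP, where the agomir libraries lie between 8.39 and 9.09 FPKM and the agomir NC libraries between 9.61 and 10.7 FPKM, and they overlap in the other 8 genes.

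Between the groups, no member passed an adjusted p of 0.05 in limma, where 1 of 12422 genes did, or 0.00805%. APOA1 had the largest difference, at 1.81 times the agomir NC mean. PLTP was the only member whose groups did not overlap, at 0.862 times the agomir NC mean. Over all genes tested, 6.36% had all agomir libraries below all agomir NC libraries, and 10.9% had them all above. At an unadjusted p under 0.05, 1 of the 8 members tested was higher with the agomir, APOA1, and 1 was lower, PLTP. That threshold held 6.63% of all genes tested on the higher side and 4.31% on the lower side, and 1 of 8 members a side (12.5%) is no result about the members as a group. The split over all genes was 824 higher and 535 lower (60.6% higher), and it moved to 673 and 688 (49.4%) with median-ratio scaling, 1009 and 423 (70.5%) with a common FPKM sum and 696 and 629 (52.5%) with quantile normalization. Of the 8 members, 4 had a positive and 4 a negative log2 fold change. Their median was -0.033, beside 0.013 over all genes tested. In bulk RNA, fewer cells that make a transcript and less of it per cell cannot be told apart, which holds for every difference given here.

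**Figure D2:**
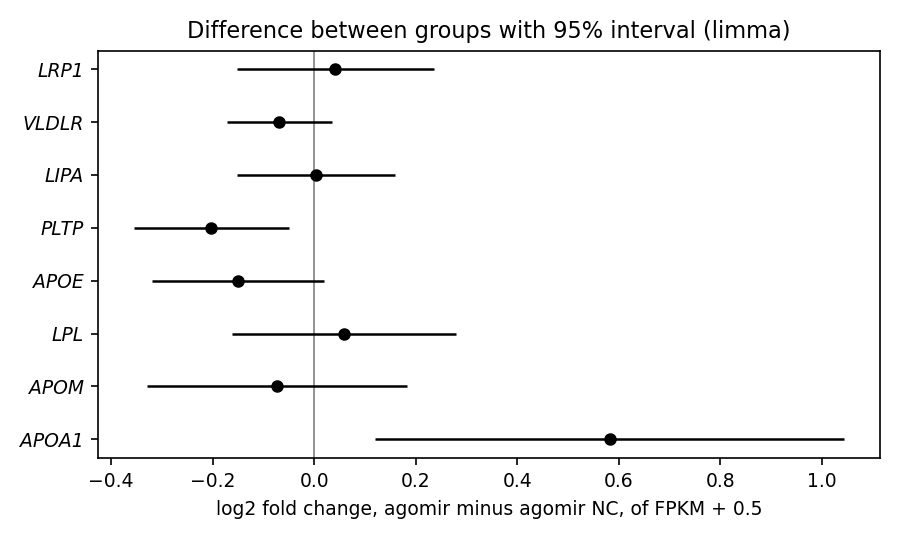
Log2 fold change of FPKM + 0.5, agomir minus agomir NC, for the 8 members tested, with points for the estimate and lines for its 95% interval from limma before adjustment for the number of genes. The intervals of PLTP and APOA1 lie on one side of 0, and those of the other 6 genes cross it.

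Among the 4 apolipoproteins of the 9 genes, APOA1 had the largest coefficient of variation, although the highest value over the lowest was larger for APOD (2.82 against 2.53). APOA1 is the main protein of high-density lipoprotein (HDL) and activates the enzyme LCAT on its surface. It was at 2.09, 1.04 and 2.12 FPKM in agomir libraries 1, 2 and 3, against 0.910, 0.837 and 1.15 FPKM in the agomir NC libraries. Agomir libraries 1 and 3 stood about alike and above all others, and agomir library 2 lay within the range of the agomir NC libraries. Mean levels were 1.75 ± 0.614 and 0.966 ± 0.164 FPKM (SD, n = 3 each). On the log2 scale the difference was 0.58 (SE 0.21, 95% interval 0.12 to 1.04), and the adjusted p from limma was 0.374. By an exact two-sided permutation test p was 0.2, and 3 libraries against 3 cannot go below 0.1. Without agomir library 2 the log2 fold change was 0.83 and without agomir library 3 it was 0.45. The study chose APOA1 for PCR from its sequencing results, so its place among the members is not independent evidence of its direction.

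APOA1 is one of a cluster of apolipoprotein genes. In the RefSeq order of genes (assembly ARS-UCD2.0), the next protein-coding genes on one side of APOA1 are APOC3, APOA4 and APOA5. APOC3 and APOA5 were listed at 0 in all 6 libraries. APOA4, the intestinal apolipoprotein, was at 0.354, 0.306 and 0.518 FPKM after the agomir, against 0.178, 0.151 and 0.463 FPKM after the agomir NC, so the groups overlapped, and it was below the level tested. On the other side, beyond LOC107133155, SIK3, which encodes a kinase, lay between 20.1 and 21.6 FPKM with the agomir and between 18.2 and 19.5 FPKM after the agomir NC. Its groups did not overlap, and its log2 fold change was 0.15 (adjusted p = 0.391 in limma). Whether the reads were counted by strand is not given in the sources used here, and any part of a neighbour in the APOA1 values was not tested.

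APOE, the ligand by which remnant particles bind receptors such as VLDLR and LRP1, stood at 6.48, 6.34 and 7.17 FPKM in the agomir libraries, against 7.50, 7.72 and 7.11 FPKM in the agomir NC libraries. Agomir library 3 lay just above agomir NC library 3, and the other 2 agomir libraries lay below all 3 agomir NC libraries. Mean levels were 6.66 ± 0.441 and 7.44 ± 0.304 FPKM (SD, n = 3 each), with a log2 fold change of -0.15 (SE 0.075, 95% interval -0.32 to 0.019, adjusted p = 0.511 in limma). The interval corresponds to a fold of between 0.802 and 1.01 on the FPKM + 0.5 scale. The p of the exact two-sided permutation test was 0.2. The neighbours of APOE are TOMM40, a subunit of the mitochondrial import pore, on one side and APOC4 and APOC2 on the other. APOC4 and APOC2, the latter the activator of LPL, were listed at 0 in all 6 libraries, and TOMM40 lay between 15.2 and 17.2 FPKM with overlapping groups.

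APOM, a lipocalin that carries sphingosine-1-phosphate on HDL, was at 2.89, 2.52 and 2.70 FPKM after the agomir, against 3.13, 3.09 and 2.42 FPKM after the agomir NC. Agomir NC library 3 was the lowest of all 6, and the groups overlapped. The log2 fold change was -0.073 (SE 0.11, adjusted p = 0.859 in limma), and with 1 library left out it lay between -0.17 (without agomir NC library 3) and -0.018 (without agomir NC library 1). APOD, a lipocalin that binds small lipids such as arachidonic acid, was at 0.178, 0.191 and 0.0830 FPKM after the agomir, against 0.142, 0.234 and 0.179 FPKM after the agomir NC. It was the 1 member below a mean of 0.5 FPKM and was tested by limma only with no filter, where its log2 fold change was -0.076 (adjusted p = 0.843), with p = 0.5 in the exact two-sided permutation test.

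In both lipases the difference between groups was smaller than the spread between libraries. LPL stood at 3.48, 4.33 and 3.67 FPKM in the agomir libraries, against 3.79, 3.64 and 3.49 FPKM in the agomir NC libraries. The highest and the lowest value were both in the agomir group. Mean levels were 3.83 ± 0.446 and 3.64 ± 0.154 FPKM (SD, n = 3 each), with a log2 fold change of 0.0585 (SE 0.099, 95% interval -0.16 to 0.28, adjusted p = 0.873 in limma). The interval allows a fold of between 0.893 and 1.21 on the FPKM + 0.5 scale. Without agomir library 2, which held the highest value, the log2 fold change was -0.023.

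LIPA, the lysosomal acid lipase that hydrolyses cholesteryl esters and triglycerides of internalised lipoproteins, was 5.43 ± 0.528 times as high as LPL with the agomir and 5.69 ± 0.751 times with the agomir NC (SD, n = 3 each). It was at 20.4, 21.0 and 20.5 FPKM after the agomir, against 18.5, 21.3 and 22.1 FPKM after the agomir NC. The 3 agomir libraries lay close together and inside the range of the agomir NC libraries. The log2 fold change was 0.0032 (SE 0.069, 95% interval -0.15 to 0.16, adjusted p = 0.990 in limma).

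PLTP, the phospholipid transfer protein of plasma that enlarges and remodels HDL, stood at 9.09, 8.39 and 8.75 FPKM in the agomir libraries, against 9.61, 10.1 and 10.7 FPKM in the agomir NC libraries. No agomir library reached the lowest agomir NC library. In 6.36% of all genes tested the agomir libraries were likewise all below, and in 10.9% they were all above, a side with no member. Mean levels were 8.74 ± 0.348 and 10.1 ± 0.535 FPKM (SD, n = 3 each). On the log2 scale the difference was -0.20 (SE 0.068, 95% interval -0.36 to -0.051), with an adjusted p of 0.354 in limma. By the exact two-sided permutation test p was 0.1, the least possible with these numbers. Without agomir NC library 3 the log2 fold change of PLTP was -0.17, and its unadjusted p in limma was 0.0527. The neighbour CTSA, a lysosomal carboxypeptidase gene, lay between 62.5 and 67.5 FPKM and its groups overlapped. PCIF1, the neighbour on the other side and an mRNA cap methyltransferase gene, lay the opposite way, between 11.9 and 12.5 FPKM with the agomir and between 10.3 and 11.7 FPKM after the agomir NC (log2 fold change 0.14, adjusted p = 0.484 in limma).

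The receptors were the most abundant members. VLDLR, which binds APOE-rich particles and is typical of muscle and fat, was at 78.4, 81.6 and 77.4 FPKM after the agomir, against 79.0, 85.3 and 84.9 FPKM after the agomir NC. Agomir library 2 lay between the agomir NC libraries, so the groups overlapped. The log2 fold change was -0.068 (SE 0.046, 95% interval -0.17 to 0.035, adjusted p = 0.627 in limma).

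LRP1, a large endocytic receptor for APOE remnants, proteases and LPL itself, was at 374, 393 and 375 FPKM after the agomir, against 386, 417 and 314 FPKM after the agomir NC. Agomir NC library 3 was the lowest of all 6 libraries and agomir NC library 2 the highest. Mean levels were 380.6 ± 10.6 and 372.2 ± 52.5 FPKM (SD, n = 3 each), with a log2 fold change of 0.042 (SE 0.087, 95% interval -0.15 to 0.24, adjusted p = 0.904 in limma). It was -0.075 without agomir NC library 3 and 0.13 without agomir NC library 2, so its sign rested on agomir NC library 3. HSPG2, the gene of the proteoglycan perlecan, named after its values were seen, was in the same order as LRP1 over the 6 libraries, at 73.3, 79.3 and 75.2 FPKM after the agomir, against 78.9, 81.4 and 62.3 FPKM after the agomir NC. The ratio of LRP1 to HSPG2 stayed between 4.89 and 5.12. The ratio of LRP1 to VLDLR lay between 4.77 and 4.89 in 5 libraries and was 3.70 in agomir NC library 3.

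The rest of the lipoprotein system was read from a list of 83 further genes in 6 roles, of which 79 were matched by name and the others were not analysed here. Of the 79 genes, 53 passed the level tested and 26 did not. At an unadjusted p under 0.05 in limma, 3 of the 53 genes were higher with the agomir (5.66%, beside 6.63% of all genes tested) and 4 were lower (7.55%, beside 4.31%). No list gene passed an adjusted p of 0.05. The median log2 fold change of the 53 genes was 0.022, beside 0.013 over all genes tested, with 27 positive and 26 negative values. In 8 of the 53 all agomir libraries were above all agomir NC libraries (15.1%, beside 10.9%), and in 7 all were below (13.2%, beside 6.36%).

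**Figure D3:**
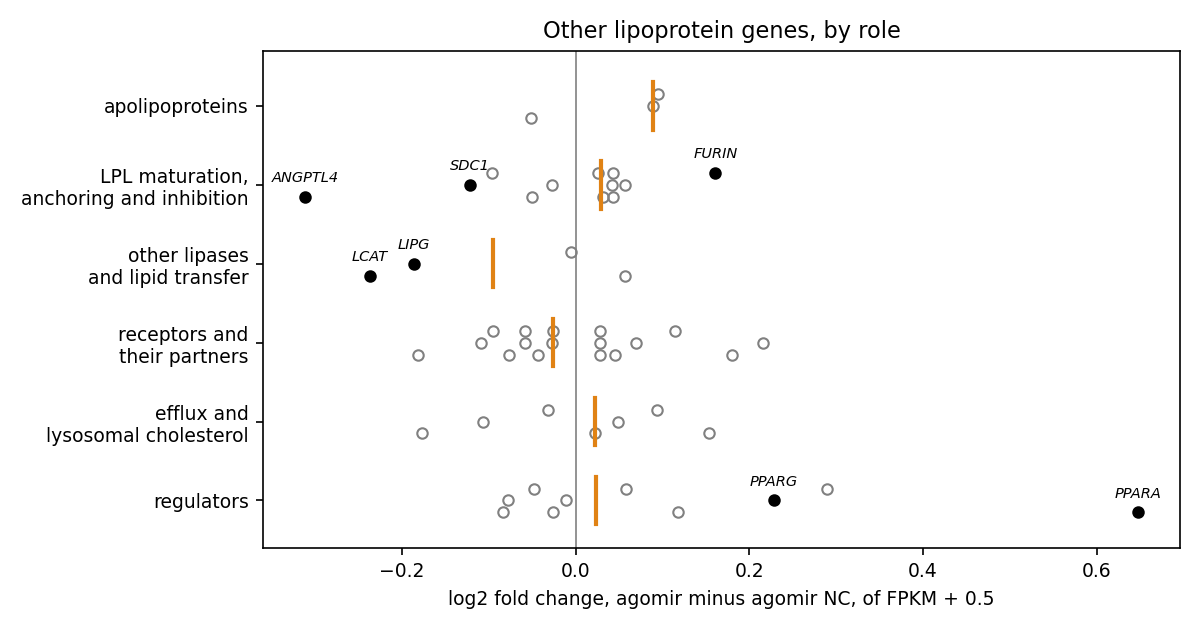
Log2 fold change of FPKM + 0.5, agomir minus agomir NC, for the 53 further lipoprotein genes tested, with 1 circle per gene grouped by role and an orange line at the median of each role. The 7 filled circles with names have an unadjusted p under 0.05 in limma, 3 of them above 0 and 4 below.

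Of the 14 further genes with a row in the apolipoprotein role, which includes the receptor gene APOBR, 11 were below the level tested. APOA2, APOA5, APOB, APOC2, APOC3 and APOC4 were listed at 0 in every library, and APOA4, APOBR, APOF, APOH and APOL3 were at most 0.518 FPKM. Values of 0 were common in these data, with between 7115 and 7268 of all 23475 genes listed at 0 in a library. Of 78 ribosomal protein genes, which are widely expressed, 1 was listed at 0 in all libraries, RPL10L. CLU, also called apolipoprotein J, was the most abundant of the group, between 41.8 and 46.2 FPKM with overlapping groups, and was between 5.58 and 6.67 times as high as APOE. APOO and APOOL, which sit in the mitochondrial inner membrane despite their names, had log2 fold changes of 0.089 and 0.095, and their groups overlapped. Among the apolipoproteins with a row, those above the level tested were thus CLU, APOE, APOM and APOA1, besides the mitochondrial pair. APOC1 and APOL6 were not matched by name, so their levels were not read.

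Among the genes that mature, anchor or inhibit LPL, 12 of 15 were tested. At an unadjusted p under 0.05 in limma, 1 of the 12 was higher with the agomir (8.33%, beside 6.63% of all genes tested). At that p 2 were lower (16.7%, beside 4.31%). All agomir libraries were above all agomir NC libraries in 2 of the 12, beside 10.9% of all genes tested. They were all below in 3, beside 6.36%. These shares are over few genes. ANGPTL4, the secreted inhibitor that unfolds LPL, was at 4.76, 4.85 and 4.37 FPKM after the agomir, against 5.57, 6.24 and 5.92 FPKM after the agomir NC. No agomir library reached the lowest agomir NC library. Its log2 fold change was -0.31 (SE 0.081, adjusted p = 0.284 in limma, exact two-sided permutation p = 0.1). SDC1, a heparan sulfate proteoglycan that binds lipoproteins, was at 31.5, 31.1 and 31.0 against 34.3, 34.1 and 33.7 FPKM, a log2 fold change of -0.12 (adjusted p = 0.374 in limma). FURIN, a protease that cleaves LPL and ANGPTL4, was at 18.9, 19.5 and 19.9 against 17.9, 17.8 and 16.3 FPKM, a log2 fold change of 0.16 (adjusted p = 0.376 in limma). The groups did not overlap in either gene. LMF1, which is needed for LPL to fold, was between 8.09 and 10.1 FPKM with overlapping groups and a log2 fold change of 0.032. SEL1L, its partner in the endoplasmic reticulum, was at 44.7, 45.0 and 43.5 against 42.9, 42.3 and 42.8 FPKM, and LMF2, a relative of LMF1, at 21.2, 22.3 and 22.7 against 24.2, 23.3 and 23.3 FPKM. The groups did not overlap in either, with log2 fold changes of 0.057 (adjusted p = 0.661 in limma) and -0.096 (adjusted p = 0.537 in limma). The chaperone CALR, the most abundant of the list, had a log2 fold change of -0.050, and its groups overlapped. GPIHBP1, the endothelial anchor of LPL, was listed at 0 in 5 libraries and at 0.0356 FPKM in agomir NC library 3. ANGPTL8, another inhibitor of LPL, was below the level tested as well.

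Of the other lipases and lipid transfer genes, 4 of 8 with a row were tested and 2 of these had an unadjusted p under 0.05, both lower with the agomir (50.0%, beside 4.31% of all genes tested), a share over very few genes. LCAT, the enzyme that esterifies the cholesterol of HDL, was at 24.1, 22.4 and 22.3 FPKM after the agomir, against 27.6, 25.6 and 28.3 FPKM after the agomir NC. The groups did not overlap, and the log2 fold change was -0.24 (SE 0.058, adjusted p = 0.259 in limma, exact two-sided permutation p = 0.1). LIPG, the endothelial lipase, which prefers HDL phospholipid, was at 20.8, 20.8 and 19.4 against 22.2, 24.1 and 23.2 FPKM. Its groups did not overlap either, and the log2 fold change was -0.19 (SE 0.056, adjusted p = 0.321 in limma). PON2, the most abundant of the role, lay between 29.2 and 32.1 FPKM and its groups overlapped. LIPE, the hormone-sensitive lipase of mature adipocytes, was at most 0.836 FPKM, and LIPC, MTTP, PON1 and PON3 were below the level tested.

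None of the 17 receptor genes and partners tested had an unadjusted p under 0.05 in the reported setting (beside 6.63% of all genes tested higher and 4.31% lower). SCARB1 was lower at that p with no filter, median-ratio scaling, quantile normalization and without agomir NC library 3, and LRP8 with no variance trend. MYLIP was higher at that p with no variance trend and without agomir NC library 3, and DAB2 without agomir library 1. LRPAP1, the chaperone that keeps ligands off LRP1 and VLDLR during their synthesis and the most abundant of the role, lay between 54.0 and 58.3 FPKM. Its agomir libraries were all above its agomir NC libraries, with a log2 fold change of 0.046 (adjusted p = 0.732 in limma). The HDL receptor SCARB1 was at 26.7, 25.7 and 26.6 against 28.4, 29.4 and 27.5 FPKM, again without overlap, a log2 fold change of -0.11 (adjusted p = 0.460 in limma). LRP8, the APOE receptor closest to VLDLR, was low, at 1.50, 1.78 and 1.62 against 1.92, 1.92 and 1.91 FPKM, with a log2 fold change of -0.18 (adjusted p = 0.581 in limma). MYLIP, a ubiquitin ligase that degrades VLDLR, had a log2 fold change of 0.22 (adjusted p = 0.518 in limma), and its groups overlapped. MSR1 was listed at 0 in all libraries, and LRP2, SORL1, LSR, DAB1 and RELN were below the level tested.

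None of the 7 efflux and lysosomal genes tested had an unadjusted p under 0.05 in the reported setting (beside 6.63% of all genes tested higher and 4.31% lower). ABCA1 was higher at that p with a common FPKM sum, with the replicate block and without agomir NC library 2. SMPD1 was lower at that p without agomir NC library 1. ABCA1, the transporter that loads cholesterol onto APOA1, was at 20.3, 21.2 and 20.8 FPKM after the agomir, against 17.3, 20.8 and 17.9 FPKM after the agomir NC. Agomir NC library 2 reached the agomir range, and the log2 fold change was 0.15 (SE 0.070, adjusted p = 0.467 in limma). ABCG1, which exports cholesterol to mature HDL, was listed at 0 in every library, and ABCA7 was below the level tested. NPC1, which moves cholesterol released by LIPA out of the lysosome, was between 11.5 and 13.3 FPKM with a log2 fold change of 0.094. Its partner NPC2 was between 149.6 and 170.3 FPKM, with a log2 fold change of -0.032, and the protease CTSD was the most abundant of the role, between 160 and 172 FPKM.

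Of 10 regulators tested, 2 had an unadjusted p under 0.05, both higher with the agomir (beside 6.63% of all genes tested). PPARA, a nuclear receptor for fatty acids, was at 5.96, 5.14 and 6.23 FPKM after the agomir, against 3.47, 3.80 and 3.23 FPKM after the agomir NC, and the log2 fold change was 0.65 (adjusted p = 0.114 in limma). PPARG, the master regulator of adipocyte differentiation and an inducer of LPL, was at 3.99, 3.69 and 3.91 against 3.39, 3.34 and 2.96 FPKM. The groups did not overlap, and the log2 fold change was 0.23 (SE 0.090, adjusted p = 0.407 in limma). The liver X receptors NR1H2 and NR1H3, which induce APOE, ABCA1 and MYLIP, had log2 fold changes of 0.058 and -0.078 with overlapping groups. SREBF1, the most abundant regulator, and SREBF2 had log2 fold changes of -0.011 and -0.026, and CEBPA, below 1 FPKM in every library, had one of 0.29 (SE 0.23, adjusted p = 0.681 in limma). Of the 3 higher genes, FURIN included, PPARA alone had an unadjusted p under 0.05 without agomir library 3, and likewise without agomir NC library 3. PPARG was also above it without agomir library 1, where its log2 fold change was 0.21.

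Of the 9 genes, the study also read APOA1 and LPL by PCR. APOA1 was read as a check of its sequencing. LPL was read in cells induced to differentiate, a step the methods do not give for the sequenced cells. The primers are shown because they define the transcripts that assay reads. They are written 5′ to 3′, and their PCR values are not used here.

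APOA1 forward: accgtgtatgtggaagcaatcaag

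APOA1 reverse: tcccagttgtccaggagtttcag

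LPL forward: acgattattgctcagcatgg

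LPL reverse: actttgtacaggcacaaccg

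The APOA1 primers are 24 and 23 bases long with 45.8% and 52.2% G or C, and the LPL primers are both 20 bases long with 45.0% and 50.0% G or C. No position in a transcript was looked up for them.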

How the data were processed

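Total RNA of 3 agomir and 3 agomir NC samples was sequenced on an Illumina platform. The values used are the FPKM that the authors deposited for each gene in each library. The submitters' processing notes name fastp, HISAT2 and StringTie, without versions, and the genome build ARS-UCD1.2. To look for whole reads, log2 ratios of 2 libraries were binned at a width of 0.002 for 2695 low genes. No bin held more than 10 genes, so reads were not recovered and depth is unknown. From the deposited FPKM, genes with a mean of at least 0.5 were taken as log2(FPKM + 0.5) and compared with limma 3.58.1 (R 4.3.3), with a variance trend, two-sided, Benjamini-Hochberg adjusted over 12422 genes. The model was tested on simulated data. For single genes an exact permutation test over the 20 labelings was added. Named were all 9 members, list genes with an unadjusted p under 0.05, the most abundant gene of each role, list genes below the filter, the 3 genes most like APOA1, APOE and LPL in pattern, and markers; any other gene was chosen after its values were seen. A few list genes are not reported here. Members and lists were chosen with earlier results of these data known. Neighbours were read from a RefSeq gene table (assembly ARS-UCD2.0), which matched all 9 members and is not the build of the files, so no coordinates are given. Other settings were other pseudocounts, filters, scalings and weights, no variance trend, the replicate number as a block, and each library left out.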

Additional observations from a re-analysis of the deposited data

How the results depend on the processing

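No member passed an adjusted p of 0.05 in any of 16 other settings. Over all genes, 1 passed in the reported setting, 0 with no filter, 0 with no variance trend, 0 with the replicate block, and between 0 (without agomir library 1 or agomir NC library 2) and 2 (without agomir NC library 3) with 1 library left out. At an unadjusted p under 0.05 the counts were 966 higher and 638 lower with no filter, 760 and 489 with no trend, and 738 and 522 with the block. APOA1 and PLTP were the 2 members with an unadjusted p under 0.05, and 1 or 2 were when 1 library was left out. APOA1 was not among them without agomir library 1 or 3 or agomir NC library 2, and PLTP not without agomir NC library 3. APOE joined them with quantile normalization and without agomir library 3. APOA1 stayed between 0.45 and 0.83 and PLTP between -0.24 and -0.17 over all settings. With 1 library left out, LPL ranged from -0.0234 to 0.12, LIPA from -0.073 to 0.053, LRP1 from -0.075 to 0.13, APOM from -0.17 to -0.018 and VLDLR from -0.10 (without agomir NC library 1) to -0.049. LIPA, reported at 0.0032, was at -0.0116 with median ratios and -0.0145 with quantiles, settings that moved the median of all genes by -0.0144 and -0.0147. For the reversals with a library left out, the cause was not tested. Of the further lipoprotein genes, between 1 and 4 were higher at an unadjusted p under 0.05 when 1 library was left out, with 1 without agomir library 3, and between 3 and 6 were lower, with 3 without agomir library 3, where SDC1 was above that p, and 6 without agomir NC library 1. These counts were added after the data were examined. Of the members' values, 6 reversed over the settings, 4 in LIPA, 1 in LPL and 1 in LRP1. Same-numbered libraries deviated from their group means with correlations of -0.051, 0.053 and 0.039. The reported setting did not pair libraries by number. Whether the numbers mark a shared origin is not given in the sources used here, and these correlations cannot exclude it. Unknown depth limits genes near 0.5 FPKM, such as APOD and APOA4.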

Other observations

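Within each library, ANGPTL4 was higher than the lipase it inhibits. The ratio of ANGPTL4 to LPL was 1.37, 1.12 and 1.19 in the agomir libraries and 1.47, 1.71 and 1.70 in the agomir NC libraries, so the groups did not overlap. The ratio was chosen after the values were seen and is given with no test, since ANGPTL4 alone did not overlap either. The ratio of LIPG to LPL lay between 4.81 and 6.66, and its groups overlapped.

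For 5 members the genes with the most similar pattern were taken from the 12421 other genes tested, by the root mean square difference of log2(FPKM + 0.5) over the 6 libraries, each gene centred on its own mean. For APOA1 these were LOC112446427 at a difference of 0.136, NHLRC1 at 0.173 and RASGRF1 at 0.192, where APOA1 itself varied by 0.396 around its mean. NHLRC1, which encodes the ubiquitin ligase malin, was at 1.98, 1.41 and 1.97 FPKM after the agomir, against 1.25, 1.17 and 1.38 FPKM after the agomir NC, so that its agomir library 2 was also the lowest of its group. For APOE they were TNK2, SLC37A4 and TMEM242, at differences of 0.0255, 0.0272 and 0.0289. For LPL they were ATF2, ATP7A and TBRG1, at 0.0187, 0.0211 and 0.0217, each highest in agomir library 2, as LPL was. LRP1 and PLTP were added after their values were seen. For LRP1 they were C19H17orf80, CEP44 and HSPG2, at 0.0168, 0.0187 and 0.0230, each lowest in agomir NC library 3. For PLTP they were NFATC4, ADM and ADAMTS4, at 0.0150, 0.0199 and 0.0222. These likenesses are descriptions only.

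Of the 11 mesenchymal markers tested, the agomir libraries were all lower in 3, NT5E, DCN and ENG (27.3%, beside 6.36% of all genes tested), all higher in 1, ZNF423 (9.09%, beside 10.9%), and overlapped with the agomir NC libraries in the other 7. At an unadjusted p under 0.05, 2 of the 11 were lower, NT5E and DCN (18.2%, beside 4.31% of all genes tested), and none was higher. NT5E, the gene of the surface enzyme CD73, was at 71.7, 70.6 and 77.5 FPKM after the agomir, against 83.1, 89.2 and 89.4 FPKM after the agomir NC, and its log2 fold change was -0.25 (adjusted p = 0.209 in limma). DCN, the decorin gene, had a log2 fold change of -0.12 (adjusted p = 0.376 in limma), ENG, the endoglin gene, one of -0.078 (adjusted p = 0.521 in limma) and ZNF423 one of 0.15 (adjusted p = 0.516 in limma). Of the 5 adipocyte markers tested, 1 was lower at an unadjusted p under 0.05 (beside 4.31% of all genes tested) and none was higher. This was FABP4, with a log2 fold change of -0.49 (adjusted p = 0.363 in limma) and overlapping groups. The log2 fold changes of the others were 0.14 for PLIN1, 0.12 for CIDEA, whose agomir libraries were all higher, -0.072 for GPD1 and -0.0049 for LIPE.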
